A study of Mus musculus with 4 samples.

Results

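The response of bone marrow cells to JQ1 was compared between 2 cell populations, to ask for which genes it depended on the cell type. LSK cells lack lineage markers and carry Sca-1 and c-Kit, a gate that holds stem cells and multipotent progenitors, and MEP cells are progenitors committed to megakaryocytes and red cells. For each array probe the JQ1 minus DMSO difference in LSK was subtracted from the JQ1 minus DMSO difference in MEP, on the log2 scale, each difference being taken relative to its median gene. This difference of differences was formed for the 23013 of 55681 probes (41.3%) that were well above background and free of outlier marks on all 4 arrays. Of these, 15624 probes carried a single gene symbol, and they measured 12017 of the 21150 genes with a symbol on the array, each read from its brightest probe.

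The cells came from C57BL/6 mice that carried JAK2V617F, an activated form of the kinase JAK2 found in myeloproliferative neoplasms, and in which Ezh2, the enzyme of Polycomb repressive complex 2, had been deleted. Total bone marrow of JAK2V617F animals with Ezh2 flox/flox alleles and Cre-ERT2, a Cre recombinase switched on by an oestrogen receptor ligand, was placed into wild-type CD45.1+ recipients after lethal irradiation, and Ezh2 was then deleted. The recipients were given JQ1 or its solvent DMSO for 2 weeks and the cells were sorted at the end of the treatment. All 4 groups (DMSO in LSK, JQ1 in LSK, DMSO in MEP, JQ1 in MEP) therefore share the JAK2V617F and Ezh2-deleted genotype, and wild-type cells were not analysed here. Each group was 1 array from 20 ng of total RNA, and the sources used here do not say how many mice each array represents. With 1 array per group there is no replicate check and no test. Values below compare these 4 arrays, and a difference of at least 1 on the log2 scale, which is 2-fold, is called higher or lower.

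JQ1 displaces the BET proteins, which carry bromodomains, from acetylated histones. BET proteins recruit the elongation kinase P-TEFb to promoters and enhancers, so that genes with short-lived transcripts and genes under strong enhancers respond early to such inhibitors. LSK cells express genes of several lineages at low levels, whereas MEP cells express Gata1 and Klf1, the transcription factors that drive erythroid and megakaryocytic genes.

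All 4 arrays lay on 1 slide. DMSO MEP differed most from the rest. Its 75th percentile signal was 327 intensity units against 210 to 245 on the other arrays, and it had 29613 probes well above background against 25167 to 26368. Over the member probes, log2 levels correlated at 0.973 to 0.977 between the DMSO MEP array and each of the others, and at 0.979 to 0.991 among the other arrays. Every difference of differences uses that array, so none can be formed without it. The gap between MEP and LSK under JQ1, which does not use it, is given beside the main groups for this reason. All 12 MEP markers were higher in MEP than in LSK under DMSO, and 8 of 10 LSK markers higher in LSK, the exceptions being Slamf1 (-1.90 in LSK, 0.23 in MEP) and Mecom (-2.80 and -2.15). The summed level of 10 LSK markers, in units of each array's 75th percentile, was 277 and 350 in LSK under DMSO and JQ1 against 124 and 135 in MEP, most of it from Cd34, and that of 12 MEP markers was 116 and 138 in LSK against 292 and 434 in MEP. Ezh2 itself was at 3.36, 3.42, 3.31 and 3.69 (log2 relative to the 75th percentile; LSK before MEP and, within each, DMSO before JQ1, an order kept below), a difference of differences of 0.05. Whether its probe lies in the deleted part of the gene was not analysed here, so that level does not check the deletion. Ly6a, which encodes Sca-1, was at 4.49 and 4.28 on the LSK arrays and at -0.32 and 0.21 on the MEP arrays, and Kit, present in both gates, was at 4.45, 4.42, 3.57 and 3.85.

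Of the 12017 genes, 697 (5.8%) had a difference of differences of at most -1, that is, a lower response in MEP than in LSK, and 406 (3.38%) had one of at least 1. Altogether 9.18% of genes differed by 2-fold in either direction. The shares of 5.8% lower and 3.38% higher are the ones to set beside the counts of each gene list below. The quartiles over all genes were -0.31 and 0.29, and the extremes were -4.33 and 3.17. The JQ1 response in one cell type said little about the response in the other, with a Pearson correlation across the 12017 genes of 0.158 and a Spearman correlation of 0.106; genes are not independent replicates. The split between higher and lower genes depends on how the arrays are put on one scale. Higher genes were 36.8% of the genes called here, 51.4% after quantile normalization, 66.7% without centring on the median gene and 0.325% on the scale of the added spike-in RNA, on which the median gene itself had a difference of differences of -1.15. All directions below are therefore relative to the median gene of each response; without that centring the median difference of differences was 0.28.

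**Figure D1:**
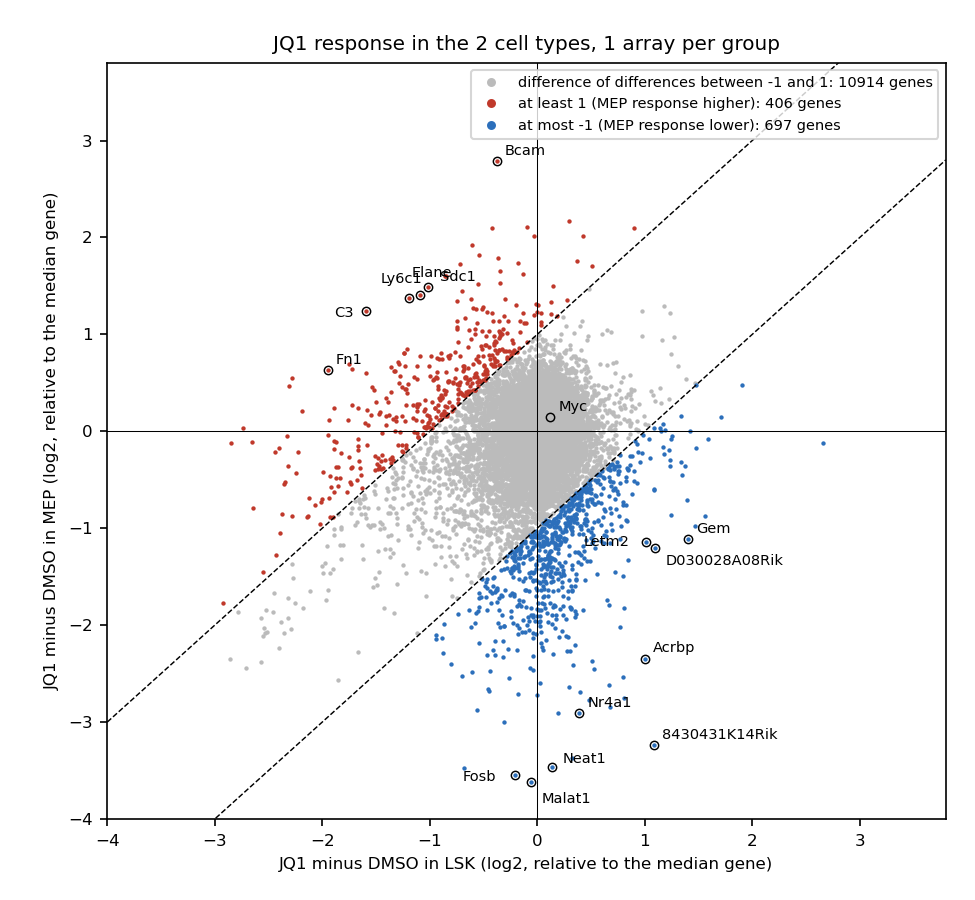
JQ1 minus DMSO in LSK (horizontal axis) against JQ1 minus DMSO in MEP (vertical axis), both log2 and relative to the median gene, for 12017 genes; dashed lines mark a difference of differences of 1 and -1, and each value comes from 1 array per group. The 697 genes with a lower MEP response (blue) lie mostly straight below the origin, and the 406 with a higher MEP response (red) spread to the left of it.

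Lower and higher genes were built differently. Of the 697 lower genes, 448 (64.3%) were 2-fold below DMSO in MEP alone, 31 were 2-fold above it in LSK alone, 5 did both, and 213 passed 2-fold in neither cell type. Of the 406 higher genes, 157 (38.7%) were 2-fold below DMSO in LSK alone, 68 (16.7%) were 2-fold above it in MEP alone, 4 did both, 4 were 2-fold to the same side in both, and 173 passed 2-fold in neither. Among all 12017 genes 5.52% were 2-fold below DMSO in MEP and 2.97% in LSK, 0.699% were 2-fold above it in MEP and 0.433% in LSK, and the 9 genes that did both were 0.0749%. The lower genes were thus mainly genes with less signal after JQ1 in MEP, and the higher genes more often genes with less signal after JQ1 in LSK.

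For each gene the array farthest from the mean of the other 3 was recorded. Among the 697 lower genes it was DMSO MEP, on its high side, in 450 (64.6%), and JQ1 MEP, on its low side, in 150 (21.5%). Among all genes DMSO MEP was the array apart in 35.9%, and on its high side in 15%. A call as lower or higher itself fixes the side on which each array can stand apart. Among the 406 higher genes the 4 arrays took more even parts: DMSO LSK on its high side in 129, JQ1 LSK on its low side in 121, JQ1 MEP on its high side in 79 and DMSO MEP on its low side in 77. The part of the DMSO MEP array as a whole in the lower genes was not tested.

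**Figure D2:**
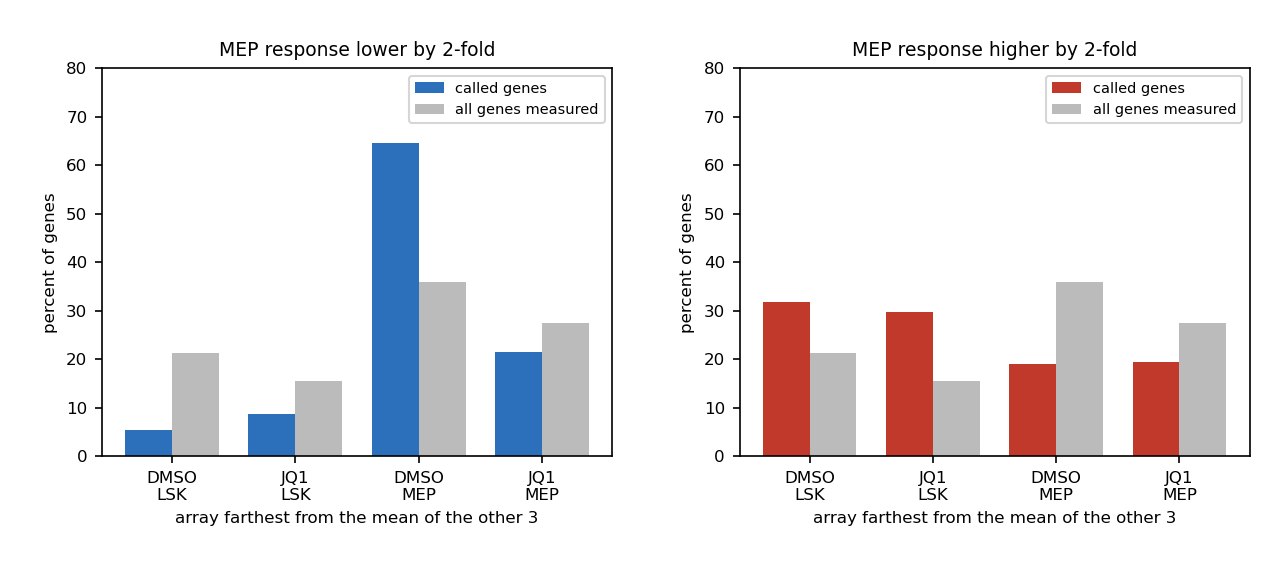
Percent of genes for which each array was farthest from the mean of the other 3, for genes with a lower MEP response (left, 697 genes) and with a higher MEP response (right, 406 genes), beside all 12017 genes (grey). DMSO MEP was apart in 64.6% of the lower genes, where the call allows its high side alone. Among all genes it was apart in 35.9% on either side and in 15% on its high side.

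The difference of differences equals the gap between MEP and LSK under JQ1 minus that under DMSO, so the calls fix the direction in which the gap differs, and the counts that follow are a description. Among the 697 lower genes, MEP exceeded LSK by 2-fold for 319 (45.8%) under DMSO and for 7 under JQ1. Among the 406 higher genes, MEP was 2-fold below LSK for 138 under DMSO and for 8 under JQ1, and 2-fold above LSK for 34 under DMSO and for 142 under JQ1. Over all genes, 1131 (9.41%) differed by 2-fold between the cell types under DMSO and 933 (7.76%) under JQ1.

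Nuclear-retained long noncoding RNAs had the lowest difference of differences of the 43 gene lists examined. The median over the 8 measured RNAs was -1.86, against 0.01 over all genes, and 6 of the 8 were lower by 2-fold against the 5.8% of all genes. Malat1, an abundant RNA of nuclear speckles, was at 2.62 in LSK under DMSO and 2.63 under JQ1, and at 5.55 and 2.28 in MEP. Its level was nearly equal on both LSK arrays, far higher in MEP under DMSO, and back near the LSK level in MEP under JQ1. The JQ1 response was -0.06 in LSK and -3.62 in MEP. Neat1, the scaffold of paraspeckles, followed the same course at 1.57, 1.77, 4.14 and 1.02 on the 4 arrays, a difference of differences of -3.60. Kcnq1ot1, the antisense RNA of an imprinted cluster, was at 0.57, 1.11, 2.75 and 0.31 on the arrays in that order, and its 2 probes gave -3.43 and -3.25. Airn, the imprinted antisense RNA of Igf2r, stood at -1.70, and Xist and Ftx, of the X-inactivation centre, at -2.01 and -1.34. Norad, a cytoplasmic RNA that binds Pumilio proteins, differed little at -0.13, and Mirg, from the Dlk1 cluster, was at 0.66. In 5 of the 8 RNAs the DMSO MEP array was the one apart, against 35.9% of all genes. The median gap between MEP and LSK was 1.57 under DMSO and -0.44 under JQ1.

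Immediate-early transcription factors, the genes a cell switches on within minutes of a stimulus, formed the next lowest groups. Of the 26 measured Egr, Nr4a, Ier and Klf genes and their kin, 13 were lower and none was higher, 25 lay below 0, and the median was -0.97. The promoters of the gene with the lowest value in each of these lists that had an entry, with Nr4a2 as the next early gene, are shown because these lists had the lowest medians, with 15 of 26 early genes and 6 of 8 noncoding RNAs 2-fold below DMSO in MEP. They are RefSeq sequences on GRCm38.p6 and run from 250 bases before to 50 after the start: Malat1 at chr19:5802623-5802922 on the minus strand, Nr4a1 at chr15:101266596-101266895 on the plus strand and Nr4a2 at chr2:57123954-57124253 on the minus strand. Capitals mark matches to the GC box.
Malat1: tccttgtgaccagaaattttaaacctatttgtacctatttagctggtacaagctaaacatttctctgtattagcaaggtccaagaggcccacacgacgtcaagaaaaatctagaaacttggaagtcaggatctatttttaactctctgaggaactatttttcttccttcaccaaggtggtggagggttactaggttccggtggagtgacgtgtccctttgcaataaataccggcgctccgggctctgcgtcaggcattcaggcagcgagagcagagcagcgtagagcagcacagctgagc
Nr4a1: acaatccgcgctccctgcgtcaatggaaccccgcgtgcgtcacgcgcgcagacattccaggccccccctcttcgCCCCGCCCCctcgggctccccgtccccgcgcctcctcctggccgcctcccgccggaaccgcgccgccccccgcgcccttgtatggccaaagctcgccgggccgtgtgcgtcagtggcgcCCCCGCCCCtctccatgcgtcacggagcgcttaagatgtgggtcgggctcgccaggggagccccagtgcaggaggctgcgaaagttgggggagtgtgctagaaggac
Nr4a2: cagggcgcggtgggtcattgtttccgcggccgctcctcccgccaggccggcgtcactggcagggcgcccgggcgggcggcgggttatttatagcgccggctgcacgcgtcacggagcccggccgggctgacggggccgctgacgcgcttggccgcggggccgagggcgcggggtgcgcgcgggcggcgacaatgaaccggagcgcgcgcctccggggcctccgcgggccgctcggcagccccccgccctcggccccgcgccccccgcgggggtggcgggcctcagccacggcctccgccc

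Both strands were searched for the GC box GGGGCGGGG, the cAMP response element TGACGTCA, the AP-1 site TGACTCA, the GATA site AGATAA, the CArG box and a looser form of it, CC and GG with any 6 bases between, which every CArG box also matches. Of the 26 early genes, 19 had a promoter entry, and of these the GC box was found in 5, against 11.5% of 32544 promoters. The CArG box was found in 2 of the 19 against 1.64% of all promoters, the cAMP response element in 1 against 1.8%, the GATA site in 1 against 11.2%, the AP-1 site in none against 5.19%, and the looser form in 18 against 73.5%. Of the 8 noncoding RNAs, 6 had an entry, and of these motifs the looser form alone was found, in 5 of them. In the window of Malat1 none of the motifs was matched, and in that of Nr4a2 the looser form alone was matched. A match is a description of letters and not of a bound site.

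Nr4a1, an orphan nuclear receptor of the early response, was at 1.88 and 2.34 in LSK under DMSO and JQ1 and at 4.10 and 1.53 in MEP. Signal was high on the DMSO MEP array alone, and the difference of differences was -3.30. Its relative Nr4a2, read by 2 probes at -2.54 and -2.27, was at 0.73, 1.07, 2.40 and 0.48 on the 4 arrays. Klf6, a zinc-finger factor, reached -2.24, with 4.64 and 4.26 in LSK and 6.42 and 4.07 in MEP (DMSO, then JQ1). Egr1, the serum-responsive zinc-finger factor that also restrains stem cell proliferation, stood at -1.62 and Klf4 at -1.59. Ier5, Ier3 and Ier2 had differences of differences of -1.41, -1.39 and -1.10, and Klf2, Zfp36 and Csrnp1 of -1.30, -1.17 and -1.08. Myc, in the same list, was the member above 0, at 0.03: its levels were 4.17 and 4.35 in LSK and 3.87 and 4.35 in MEP. The JQ1 response of Myc was 0.12 in LSK and 0.14 in MEP.

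The AP-1 family, whose Fos and Jun proteins pair to bind DNA, gave 5 lower and no higher genes of 10 measured, with a median of -0.92. Fosb was at 3.00 and 2.86 in LSK under DMSO and JQ1 and at 5.79 and 2.58 in MEP, a difference of differences of -3.34. Atf3, a stress-induced partner of the family, was at -0.30, -0.92, 2.45 and -0.68 on the 4 arrays. Both genes were high on DMSO MEP and differed by less than 1 between the other arrays. Fos, Jun and Jund were closer to the threshold at -1.28, -1.18 and -1.02. Batf3 and Fosl2 lay on the other side, at 0.49 and 0.32. The DMSO MEP array was the one apart for 7 of these 10 genes and for 16 of the 26 early genes above, against 35.9% of all genes. It was also the one apart for 25 of 33 mitosis genes and 29 of 48 DNA replication genes. The medians of those lists were 0.06 and 0.07. All these counts take either side of the array, and standing apart on either side is not particular to the early and AP-1 genes. The side was not counted by list. For mitosis and DNA replication genes the median MEP minus LSK gap under DMSO was -0.32 and -0.04, below 0, unlike the gaps that follow. Among all genes DMSO MEP was apart on its high side in 15%. The median MEP minus LSK gap was 1.06 under DMSO and 0.11 under JQ1 for the AP-1 family, and 0.80 and -0.20 for the early genes.

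Some feedback inhibitors of signalling were lower as well. Of 13 measured genes of ERK feedback, 6 were lower, against 5.8% of all genes, and none was higher, and the median was -0.69. These were Spry1 (-1.59), Spry2 (-1.56) and Phlda1 (-1.56), which restrain receptor kinase signalling, and the MAP kinase phosphatases Dusp6 (-1.25), Dusp1 (-1.21) and Dusp2 (-1.17). Dusp6 differed from the early genes in its course: it was at 3.66 and 4.0 in LSK under DMSO and JQ1 and at 2.96 and 2.32 in MEP, so that its lowest level was on the JQ1 MEP array. Among 17 genes of NF-kappaB subunits and feedback, 3 were lower, and the median of -0.30 turned to 0.02 when the probes of a gene were averaged. Those 3 were Tnfaip3 (-2.70), the deubiquitinase that ends NF-kappaB signalling, and the atypical inhibitors Nfkbiz (-1.85) and Nfkbid (-1.61). Tnfaip3 was at 1.34 and 1.1 in LSK and at 4.08 and 1.42 in MEP (DMSO, then JQ1). The subunits Rela (-0.01), Relb (0.05) and Nfkb2 (0.15) differed little.

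Genes of JAK2-STAT5 signalling and feedback are of interest because all cells carried JAK2V617F. As a list, which is not one of targets alone, they showed no shift in the median, at -0.06. Of 22 genes 3 were lower, against 5.8% of all genes, and none was higher. The 3 lower genes were Osm, a cytokine induced by STAT5 (-2.11), Socs3, which blocks JAK kinases (-1.77), and the kinase Pim1 (-1.22). Socs3 was at 2.99 in LSK under DMSO and 3.90 under JQ1, and at 3.03 and 2.44 in MEP. It was thus higher with JQ1 in LSK and lower with JQ1 in MEP, with responses of 0.84 and -0.93. Osm had responses of 1.25 in LSK and -0.86 in MEP, and Pim1 of 0.05 and -1.17. Jak2 itself differed by -0.09. The BET proteins and their P-TEFb regulators gave no gene past 2-fold among 14, with a median of 0.02. Hexim1, a P-TEFb inhibitor whose transcript often serves as a readout of BET inhibition, was at 0.85 and 1.22 in LSK under DMSO and JQ1. It was at 1.13 on both MEP arrays. Relative to the median gene its responses were 0.31 in LSK and -0.34 in MEP. Before centring, the median gene itself was 0.34 higher with JQ1 in MEP. The negative response is thus relative to the median gene, and Hexim1 did not fall on the scale of the levels given here. Whether Hexim1 fell on a different scale, such as that of the added spike-in RNA, was not tested.

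**Figure D3:**
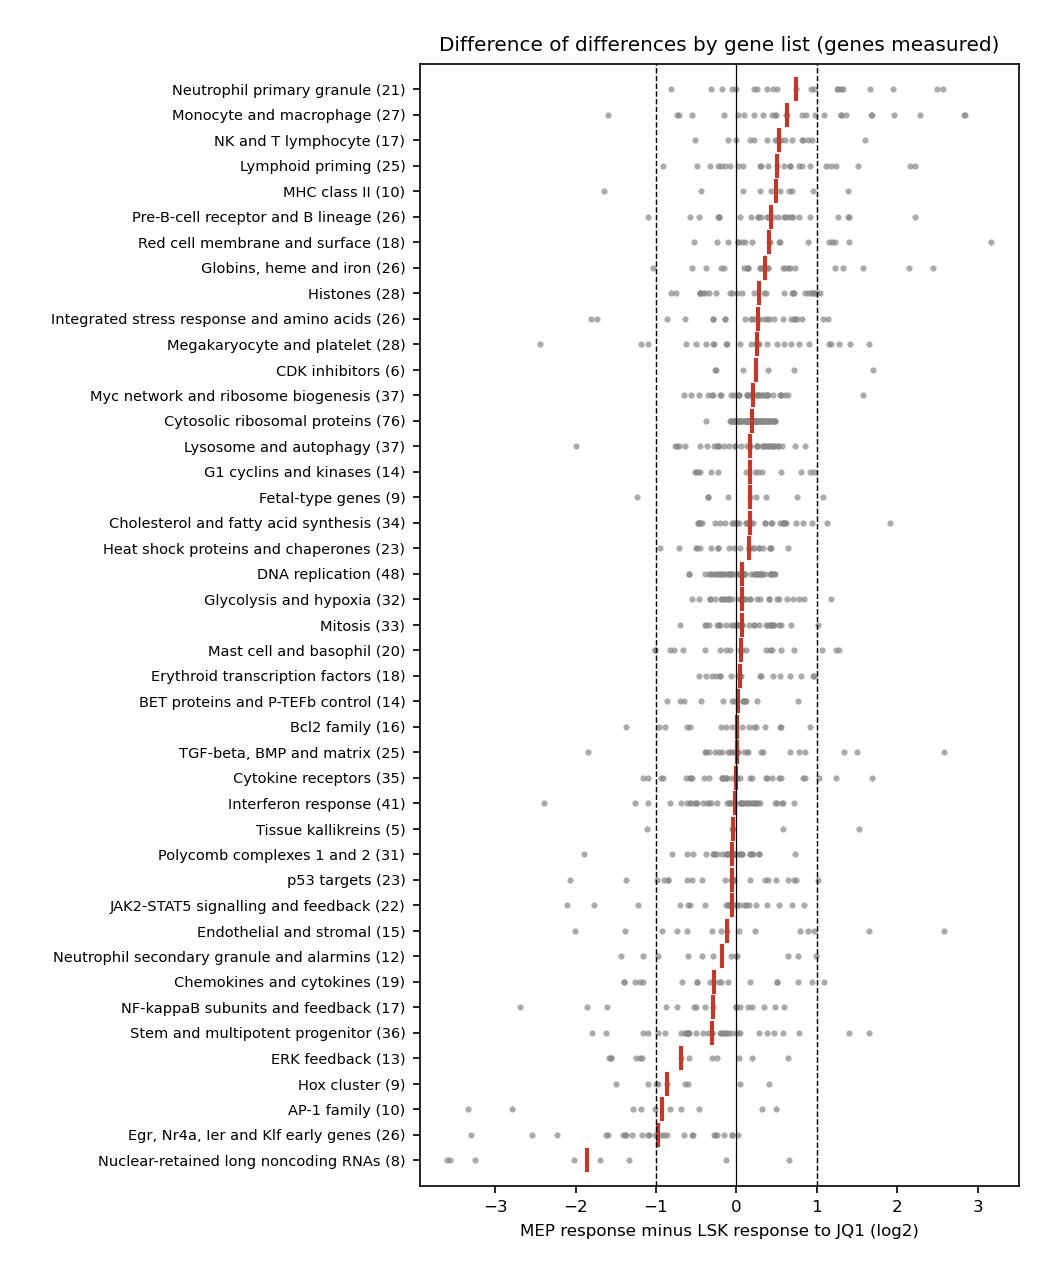
Difference of differences (MEP response minus LSK response to JQ1, log2) of each measured gene (grey points) in 43 gene lists, with the list's median (red bar) and the number of genes measured in brackets; dashed lines mark 1 and -1. Nuclear long noncoding RNAs, early genes and AP-1 genes lie at the bottom with medians from -1.86 to -0.92, and primary granule genes at the top with a median of 0.74.

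Neutrophil primary granule genes had the highest median of the 43 lists, 0.74. The list holds the proteases and peroxidase made by early granulocyte precursors. It also holds genes that encode neither, among them Ly6c1 (2.56), its highest member, and Igsf6 (1.66). Of 21 measured genes 8 were higher, against 3.38% of all genes, and none was lower. Elane, the neutrophil elastase, was at 5.73 in LSK under DMSO and 4.71 under JQ1, and at 5.25 and 6.99 in MEP. JQ1 thus went with less Elane in LSK and more in MEP, with responses of -1.09 and 1.40 and a difference of differences of 2.49. Mpo, the myeloperoxidase, was at 9.96 and 9.18 in LSK and at 9.41 and 10.16 in MEP (DMSO, then JQ1) (1.26), and Prtn3, proteinase 3, was at 6.09, 5.47, 5.05 and 6.03 on the arrays in the same order (1.33). Hp, haptoglobin, had a difference of differences of 1.94 and Ms4a3, a marker of granulocyte and monocyte progenitors, of 1.25. Gstm1, a glutathione transferase, was read by 2 probes at 1.30 and 1.34. Lyz2, lysozyme, was lowest in the list at -0.81. The median gap between MEP and LSK for the list was -0.27 under DMSO and 0.38 under JQ1, so that the order of the cell types turned.

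Secondary granule genes and alarmins, made later in the neutrophil lineage, did not share that direction. None of the 12 measured was higher and 2 were lower, Camp (-1.43), an antimicrobial peptide, and Csf3r (-1.17), the G-CSF receptor. Camp was at -0.13 and 1.85 in LSK under DMSO and JQ1, and at 3.5 and 4.32 in MEP, so it was higher with JQ1 in both cell types and by more in LSK. S100a9, an alarmin, gave -0.97 with responses of 1.47 in LSK and 0.50 in MEP. The summed level of the 4 measured mature neutrophil markers was 1.32 and 4.42 in LSK under DMSO and JQ1, and 13.7 and 22.3 in MEP, with 2 to 4 of them well above background on an array. Camp, one of the lower genes, makes up most of the MEP sums, so they are no separate measure of neutrophils, whose part in the granule genes was not tested.

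Monocyte and macrophage genes were higher in 10 and lower in 1 of 27, against 3.38% and 5.8% of all genes, with a median of 0.63. Here the LSK response carried most of the difference, with a median of -1.17 in LSK and -0.32 in MEP, and 14 of the 27 genes were 2-fold below DMSO in LSK against 4 in MEP. F13a1, a clotting factor subunit of monocytes, was at 5.84 and 3.58 in LSK under DMSO and JQ1 and at 3.53 and 3.81 in MEP. Its level was high on the DMSO LSK array alone, and both of its probes passed 2-fold, at 2.28 and 2.52. Cx3cr1, the fractalkine receptor, ran at 3.98, 2.81, 2.94 and 3.71 on the 4 arrays, with 3 probes from 1.64 to 2.0. Csf1r, the receptor of the macrophage growth factor, was at 5.35 and 3.82 in LSK and at 3.27 and 3.69 in MEP, a difference of differences of 1.69, but its 3 probes ranged from -0.68 to 1.69. Ly86, a partner of a Toll-like receptor homologue, reached 1.96, Trem2, a lipid receptor of macrophages, 2.83, and Irf8, the factor that directs monocyte fate, 1.09. Klf4 was the lower gene. The summed level of 6 macrophage markers was 1.08 and 1.25 in LSK under DMSO and JQ1 and 1.39 and 3.46 in MEP, with 3 to 5 of them well above background on an array, and Mrc1 was not well above background on any array. The higher sum in MEP under JQ1 came from Vcam1 (0.01 and 1.65 in MEP), and the other 5 markers were at or below -2.76 on both MEP arrays. Fewer cells of a type and less RNA per cell cannot be told apart in these bulk samples.

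C3 and Ly6c1 combined both directions. C3, the central complement component, was at 2.67 in LSK under DMSO, 1.14 under JQ1, and at 1.85 and 3.44 in MEP, with 2 probes at 2.10 and 2.84. Ly6c1, a surface antigen of monocytes and endothelium whose near-identical copy Ly6c2 can share its probe signal, was at 7.09 and 5.97 in LSK and at 4.72 and 6.43 in MEP, with 2 probes at 2.56 and 3.86. Both had less signal with JQ1 in LSK and more in MEP. Fn1, fibronectin, had the same signs, with responses of -1.95 and 0.63, and Sdc1, the syndecan of plasma cells, with responses of -1.02 and 1.48.

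**Figure D4:**
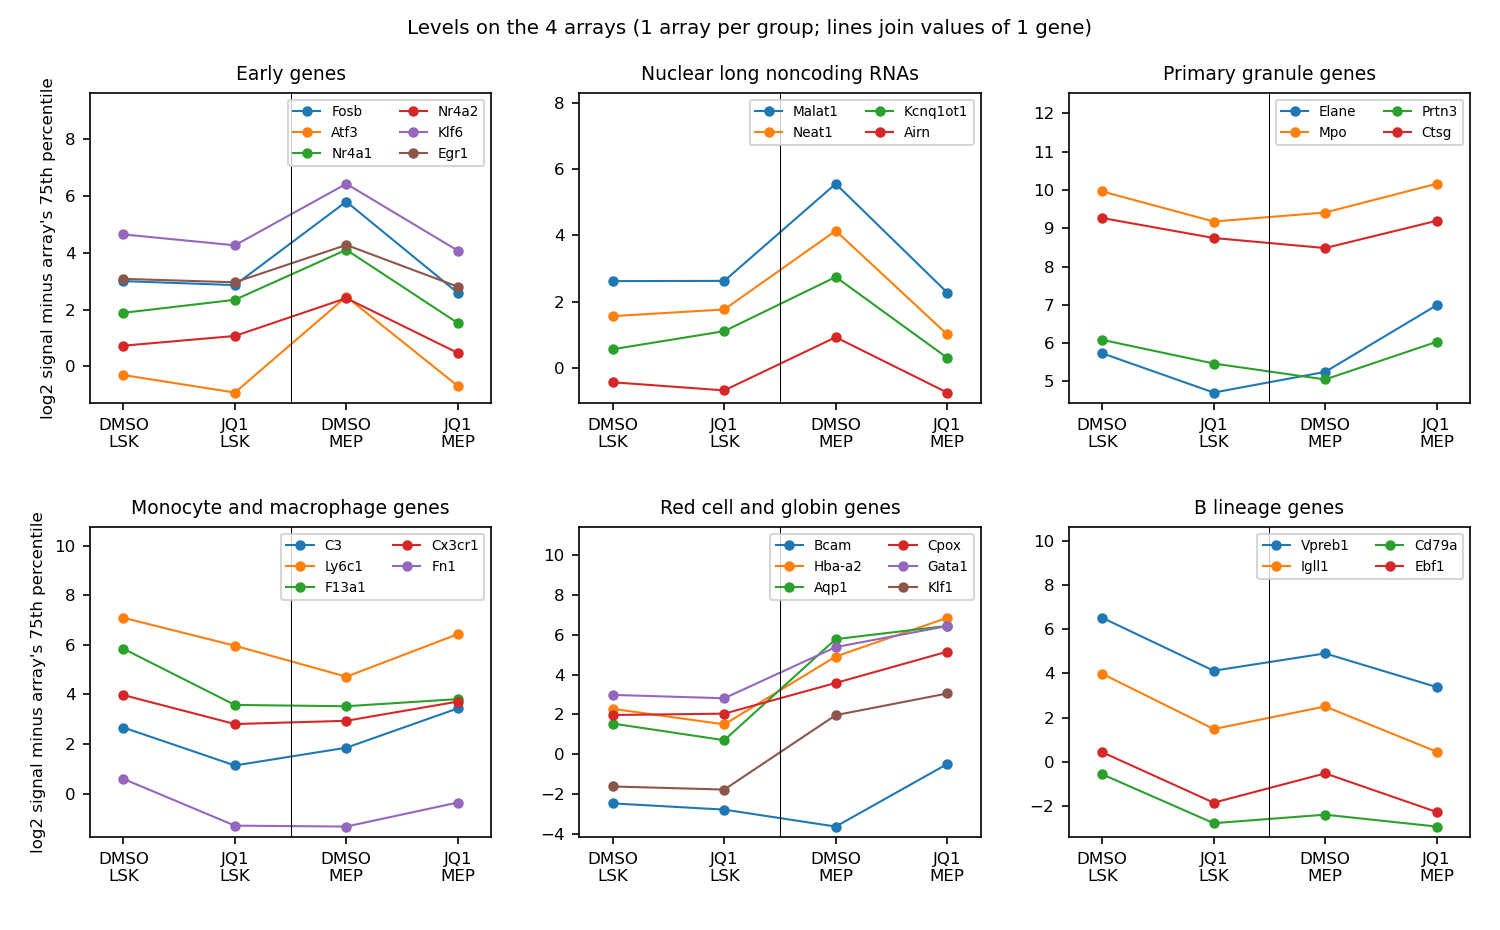
Levels of named genes on the 4 arrays (log2 signal minus the array's 75th percentile, 1 array per group; the vertical line separates LSK from MEP) in 6 groups. Early genes and nuclear noncoding RNAs peak on the DMSO MEP array, primary granule genes have less signal under JQ1 in LSK and more in MEP, and B lineage genes have less signal under JQ1 in both.

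Most red cell genes leaned to a higher response in MEP, and a minority passed 2-fold. Among 18 measured genes of the red cell membrane 15 lay above 0, 5 were higher and none lower, with a median of 0.41. Among 26 genes of globins, heme and iron 21 lay above 0, 5 were higher and 1 was lower, with a median of 0.35. Of all genes 3.38% were higher and 5.8% lower. Bcam, the Lutheran blood group protein, had the highest value of all genes, 3.17: it was at -2.45 and -2.77 in LSK under DMSO and JQ1 and at -3.61 and -0.48 in MEP. That signal was low on 3 arrays and rests on 1 probe, and with normexp background correction the value was 1.75, below those of C3 (2.59) and Ly6c1 (2.48). Hba-a2 was at 2.28 and 1.5 in LSK and at 4.90 and 6.84 in MEP, and Hba-a1 gave -0.49, -1.13, 2.32 and 4.11 on the arrays in the same order. These alpha globin genes are near-identical copies, so their values of 2.44 and 2.15 are not independent. Cpox, an enzyme of heme synthesis, had a response of 0.00 in LSK and 1.23 in MEP. The water channel Aqp1 (1.22), Tspo2 (1.16) and the iron exporter Slc40a1 (1.57) reached the threshold more through LSK, where their responses were -0.90, -1.30 and -0.99. Hmox1, which degrades heme, was the lower gene at -1.04.

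The erythroid transcription factors as a list showed no shift, with none of 18 past 2-fold, 7 below 0 and a median of 0.05 against 0.01 over all genes. Their highest members were Klf1 and Gata1. Gata1 was at 2.98 and 2.81 in LSK under DMSO and JQ1 and at 5.37 and 6.43 in MEP, a difference of differences of 0.95. Klf1, the erythroid Kruppel-like factor, was at -1.61, -1.76, 1.97 and 3.05 on the arrays in the same order (0.97). Both lie just below the threshold, and both were highest on the JQ1 MEP array. The median gap between MEP and LSK for the red cell membrane genes was 1.03 under DMSO and 1.72 under JQ1. The summed level of the 4 measured mature red cell markers under DMSO and JQ1 was 1.33 and 0.92 in LSK, and 6.79 and 19.6 in MEP, with 3 or 4 of them well above background. Most of that sum is Hba-a1, itself one of the higher genes above, so it is no separate measure of mature red cells, whose part in these differences was not tested.

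Megakaryocyte and platelet genes were divided, with 5 higher and 3 lower of 28, against 3.38% and 5.8% of all genes. Their median was 0.25. Vwf, von Willebrand factor, was at 0.86 and -0.54 in LSK under DMSO and JQ1 and at 2.65 and 3.17 in MEP (1.65). Itgb3, the platelet fibrinogen receptor subunit, was higher only on the JQ1 MEP array, at 2.89 against 1.24 to 1.44 on the other arrays (1.41). The platelet glycoprotein subunits Gp1bb and Gp1ba gave 1.27 and 1.17. Mmrn1, multimerin of platelet granules, went the other way at -2.44, with responses of 1.46 in LSK and -0.98 in MEP, as did P-selectin, Selp, at -1.19. Mef2c, a factor of megakaryocyte maturation, was lower at -1.09.

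Stem and multipotent progenitor genes leaned to the lower side. Of 36 measured genes 27 lay below 0, and the median was -0.31. By 2-fold 4 were lower and 2 higher, against 5.8% and 3.38% of all genes. Procr, a receptor that marks stem cells, was at 0.84 and 1.37 in LSK under DMSO and JQ1, and at -0.06 and -1.06 in MEP, a difference of differences of -1.80. Hlf, a transcription factor of stem cells, was at 1.99, 3.23, 0.59 and 1.01 on the arrays in the same order. JQ1 thus went with more Hlf in LSK (response 1.17) and little difference in MEP (0.08). Slamf1 differed by -1.16, Angpt1 by -0.89, Meis1 by -0.50 and Cd34 by -0.63. Egr1 (-1.62), another of the lower genes, is also counted with the early genes above. The 2 higher genes were Vwf and Tcf15 (1.40), both of which mark subsets of stem cells.

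Hox genes, the homeobox factors of which several maintain stem cell self-renewal, had a median of -0.87 over the 9 measured of 39 on the array, with 2 lower and none higher. Hoxa3 was at -0.87 and -0.34 in LSK under DMSO and JQ1 and at -0.95 and -1.64 in MEP (-1.49), and Hoxa10 at -0.11, 0.32, -0.33 and -0.74 on the arrays in the same order (-1.10). Hoxa9, read by 2 probes at -1.93 and -0.97, and Hoxa5 (-0.87) had the same course: slightly more signal with JQ1 in LSK and less in MEP. In 7 of the 9 the JQ1 MEP array was the one apart, against 27.5% of all genes. This group thus differs from the early genes, for 16 of 26 of which it was DMSO MEP. Without the background filter the median over all Hox genes turned to 0.50, with the dim members that it removes then included.

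B lineage genes had less signal with JQ1 in both cell types at the median, and 15 of 26 in LSK and 13 in MEP were 2-fold below DMSO. The median response of 26 genes of the pre-B-cell receptor and B lineage was -2.0 in LSK and -0.98 in MEP, and the median difference of differences was 0.42, with 4 higher and 1 lower. Vpreb1, a surrogate light chain, was at 6.52 and 4.12 in LSK under DMSO and JQ1 and at 4.91 and 3.38 in MEP. It was lower on the JQ1 array of both cell types, and the difference of 0.60 was below the threshold. Rag1, of the recombinase, was at -0.39 on the DMSO LSK array and between -2.76 and -2.5 on the other arrays (2.22). Cd79a (1.40) and Spib (1.26) were alike in having their larger response in LSK. The B lineage markers had a summed level of 49.0 and 18.6 in LSK under DMSO and JQ1 and of 20.1 and 11.5 in MEP, with 3 or 4 of 5 well above background, and Pax5 was not well above background on any array. Most of that sum is Cd79b. The part of residual B cells in these values was not tested.

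Genes of lymphoid priming, 25 in number, had 6 higher, against 3.38% of all genes, and none lower, with a median of 0.50. Ly6d, which marks the B-biased fraction of lymphoid progenitors, was at 3.85 and 2.26 in LSK under DMSO and JQ1, and at 1.60 and 1.79 in MEP (1.51). Il7r, the interleukin-7 receptor, gave 1.24 and Lck, a T cell kinase, 1.18. Tcf7, a T lineage factor, differed from these in that it was highest on the JQ1 MEP array, at 0.12 against -2.03 to -1.73 on the other arrays (2.15). Genes of MHC class II gave a median of 0.49 over 10. Cd74, the invariant chain, was at 6.64 and 4.84 in LSK and at 5.82 and 5.68 in MEP (1.39), while Ciita, the coactivator of these genes, was lower at -1.64. For 17 genes of NK and T cells the median was 0.53, with Gzma, granzyme A, the one past 2-fold at 1.60.

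**Figure D5:**
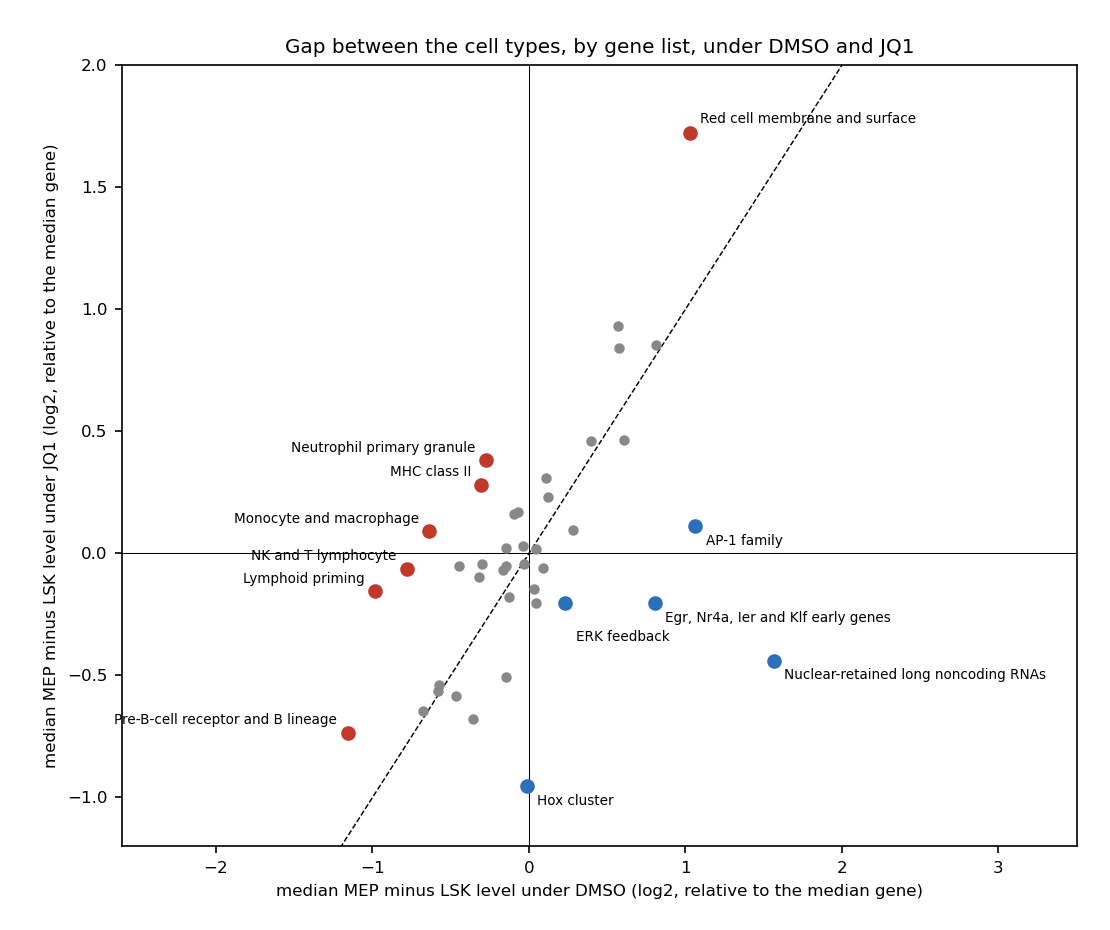
Median MEP minus LSK level of each list with at least 8 measured genes under DMSO (horizontal axis) and under JQ1 (vertical axis), log2 and relative to the median gene; the dashed line marks an equal gap, and lists with a median difference of differences of at least 0.4 in size are named. Lymphoid and myeloid lists lie left of the line, with MEP below LSK under DMSO, and early genes and nuclear noncoding RNAs lie right of it, with a gap near 0 or below it under JQ1.

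In the large growth programmes few genes passed 2-fold. None of the 76 measured cytosolic ribosomal protein genes passed 2-fold, their median was 0.20, and 66 lay above 0. None of 48 DNA replication genes passed it either (median 0.07), and of 33 mitosis genes 1 did (median 0.06). The Myc network and ribosome biogenesis gave a median of 0.20 with Mycl the one gene of 37 past 2-fold (1.58), and Polycomb complexes a median of -0.06 with Phf1 the one of 31 (-1.89). Interferon response genes had a median of -0.01 over 41, with 3 lower against 5.8% of all genes: Oas2 (-2.39), Irf1 (-1.26) and Rtp4 (-1.10). Among 6 CDK inhibitors Cdkn2a, which encodes p16 and p19 and is a classical target of Ezh2, was higher at 1.70. It was at 1.24 and 0.84 in LSK under DMSO and JQ1 and at 1.92 and 3.49 in MEP, with its highest level on the JQ1 MEP array.

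Of the p53 list 2 genes were lower and 1 was higher of 23, against 5.8% and 3.38% of all genes. Plk3 (-2.07), a stress-responsive kinase, and Pmaip1 (-1.37), the BH3-only protein Noxa, were lower. Phlda3 (1.02), an inhibitor of Akt, was higher, and the median was -0.06. Ppp1r15a, the phosphatase subunit that ends the integrated stress response, was at 3.52 and 3.45 in LSK under DMSO and JQ1 and at 5.62 and 4.01 in MEP (-1.81). Vldlr, a lipoprotein receptor in the same stress list, reached its value through LSK: it was at 3.23 in LSK under DMSO and 4.67 under JQ1, and at 1.95 and 1.93 in MEP (-1.73). Trib3 (1.14) and Stc2 (1.07) were higher, and the median over these 26 genes was 0.27.

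Of the 3032 genes with 2 or more qualifying probes, 191 were called. All probes of a gene lay on one side of 0 in 156 of these (81.7%) and all passed 2-fold in 83 (43.5%). The SD between probes of one gene was 0.43 for the difference of differences, against 0.25 for the LSK response and 0.38 for the MEP response. Genes whose every probe passed 2-fold on the higher side also included Mefv, the pyrin of granulocytes (2.40 and 2.03), and Hopx, a homeodomain-only protein of stem cells (1.55 and 1.71). On the lower side they also included Mapk8ip3, a scaffold of JNK signalling (-2.88 and -2.08), Gem, a small GTPase (-2.51 and -2.12), and Eif4a2, a translation initiation helicase (-2.14 and -1.57). Eif4a2 was at 2.98 and 3.29 in LSK under DMSO and JQ1 and at 5.17 and 3.61 in MEP, which is the course of the early genes. The lowest value of all genes, -4.33, belonged to 8430431K14Rik, a RIKEN transcript at -3.29 and -2.14 in LSK under DMSO and JQ1 and at -0.41 and -3.31 in MEP, and Igflr1, a receptor of the TNF receptor family, was lower at -3.56. Each of these rests on 1 probe. With normexp background correction 8430431K14Rik came to -2.0, whereas Malat1 and Neat1 were at -3.55 and -3.41.

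Dim and noncoding transcripts held more of the differences. With the genes divided by mean signal into 4 bins of equal size, 12.3% of the dimmest were lower and 7.95% higher, against 1.6% and 1.17% of the brightest. Of 233 genes annotated as long noncoding RNAs 45 (19.3%) were lower and 7 (3%) higher, against 5.48% and 3.4% of 11687 protein-coding genes. Probes without a gene symbol added to the lower side: of 3379 member probes designed on genomic intervals 800 (23.7%) were lower, and of 680 on Ensembl transcripts 143 (21%), against 6.48% of the 15624 probes with a symbol. Over all 23013 member probes 2614 (11.4%) were lower and 739 (3.21%) higher. Probes without a gene symbol thus made up most of the lower probes, 1602 of 2614, against 7389 of all 23013 member probes. These classes of probes and genes were not compared at equal signal.

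A further 514 genes were well above background on exactly 3 arrays and so have only a bound. It was taken against the dimmest signal that was well above background on the array that missed it. Where the gene's own signal there was brighter than that, its own signal was used, and the bound is then its plain value. For 175 of these the bound itself passed 2-fold. Il2ra, the high-affinity interleukin-2 receptor chain, was not well above background on the DMSO MEP array, and its difference of differences was at least 4.67 on the log2 scale. Thbs1, thrombospondin, and Cldn13, a claudin of red cell precursors, were not well above background on the JQ1 LSK array, with bounds of at least 2.18 and 2.07. For Thbs1 the gene's own signal was used. Mecom, which encodes the stem cell factor Evi1, was not well above background on the JQ1 MEP array, and its value was at most -2.86. That direction is the same as for Procr and Hlf.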

How the data were processed

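RNA levels were read on 4 Agilent arrays of 1 colour (design 028005, 62976 spots), 1 per group. The authors used Feature Extraction 10.7.1.1 on the scans, per the file headers, and the deposited scanner output holds an intensity per spot after background subtraction and detrending, with the software's error of that intensity and other marks (well above background, outlier) used as filters. The authors' deposited table holds a ratio per probe on the linear scale and served as an alternative. No spot of any array was saturated. The positions in the files are on mm9 and were not printed.

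Log2 processed signals were averaged over replicate spots without an outlier mark and reduced by the array's 75th percentile. Within an array replicate spots had an SD of 0.09 to 0.11, which is technical error only. Probes were named through transcript accessions in RefSeq's GRCm38.p6 annotation (28020 with 1 symbol, 27661 without), and a gene was read from its brightest probe over the 4 arrays. The JQ1 minus DMSO differences were centred on the median of the 12017 genes and subtracted. The arithmetic was tested on simulated data with 200 changed genes. Genes named are the 12 at each end, the 10 at each end among genes whose 2 or more probes all passed 2-fold, up to 4 per gene list with any member an account turns on, all genes 2-fold apart in opposite directions, and 8 checks. The CArG box joined the motif search after the data were seen. Members and gene lists were chosen with earlier results of these data known. Alternatives were normexp background correction (limma 3.58.1 in R 4.3.3), quantile normalization, the deposited table, the mean over probes, no background filter, brighter genes alone, no centring, spike-in scaling and a threshold of 1.5. The files used hold no mean signal, so normexp used the median signal and the median background. Python 3.11.15, numpy 2.4.6 and pandas 2.3.3 were used.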

Additional observations from a re-analysis of the deposited data

Results flagged for a closer look

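For 9 of the 12017 genes (0.0749%) the JQ1 response passed 2-fold in opposite directions in LSK and MEP, and these are listed for that reason. With 1 array per group the difference between the cell types was not tested.

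4 of the genes had less signal with JQ1 in LSK and more in MEP. Their differences of differences were 2.84 for C3, 2.56 for Ly6c1, 2.5 for Sdc1 and 2.49 for Elane. C3 and Elane are made by myeloid cells, and the order of the cell types turned for both: Elane was higher in LSK than in MEP under DMSO (5.73 against 5.25) and lower under JQ1 (4.71 against 6.99).

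The other 5 had more signal with JQ1 in LSK and less in MEP. Their differences of differences were -4.33 for 8430431K14Rik, -3.35 for Acrbp, -2.51 for Gem, -2.30 for D030028A08Rik and -2.15 for Letm2. Acrbp, an acrosin-binding protein that platelets also carry, was at -2.33 and -1.26 in LSK under DMSO and JQ1 and at 0.79 and -1.22 in MEP. Gem was at 0.42, 1.89, 0.70 and -0.08 on the LSK arrays (DMSO, JQ1) and then the MEP arrays, and both of its probes passed 2-fold. D030028A08Rik and Letm2 were dim on every array, at or below -1.45, and each rests on 1 probe. Letm2 came to -0.81 and D030028A08Rik to -0.91 with normexp background correction.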

How the results depend on the processing

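Single values were followed for 199 of the named genes, 92 of them among brighter genes alone. No called gene of these changed sign in the alternatives. No list median of at least 0.5 in size did either, except the Hox cluster (-0.87), which became 0.50 without the background filter. Spike-in scaling was left out of these checks. Of all 1103 called genes, 1 had the other sign with normexp, 1 with quantile normalization, 3 with the mean over probes and 127 with spike-in scaling. The counts of 406 higher genes, 697 lower genes, 9 genes 2-fold apart in opposite directions and 527 called genes with DMSO MEP apart, and the correlation of 0.158, moved as follows. With normexp they became 170, 308, 3 and 272. Without the background filter they became 1550, 2689, 233 and 1374, and the correlation 0.0002. Among brighter genes alone they were 66, 148, 3 and 126. Without centring 781 genes were higher, 390 lower and 15 opposite. With spike-in scaling 25 were higher and 7669 lower, and at a threshold of 1.5 the counts were 124 and 252. Quantile normalization gave 564 and 534, with 379 and 504 genes shared with those called, and a correlation of 0.0988. Of 199 named genes, 56 differed in size with normexp by more than the SD between probes of one gene (0.43). The deposited table and the mean over probes moved no count by over 1.5 times. No paired analysis was possible because each group has 1 array and the labels share a single replicate number, and for the same reason no array could be left out. Signal near background limits the precision of dim probes, and the number of arrays allows no error between animals.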

Other observations

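Of the stress chaperones, Hspa1a and Hspb1 had less signal with JQ1 in both cell types. Hspa1a, the inducible Hsp70, whose near-identical copy Hspa1b can share its probe signal, was at 1.78 in LSK under DMSO and at 0.00 under JQ1, and at 3.76 and 1.53 in MEP, so that its responses of -1.85 and -2.57 differed by -0.72. Hspb1, the small heat shock protein Hsp27, had responses of -1.12 and -2.08, which differed by -0.96. None of the 23 measured chaperones passed 2-fold in the difference, and their median was 0.15. Among 19 chemokines and cytokines 5 were lower and 1 was higher, with a median of -0.28 that turned to 0.43 among brighter genes alone. Ccl2, a monocyte attractant, was at 2.66 and 2.35 in LSK under DMSO and JQ1 and at -0.39 and -1.69 in MEP (-1.26), and Cxcl10, an interferon-induced chemokine, gave -1.16.

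Mast cell genes were split in their responses. Mcpt4, a mast cell chymase, was at 6.68 and 6.71 in LSK under DMSO and JQ1 and at -2.62 and -1.08 in MEP, a difference of differences of 1.23. Tpsb2, a tryptase, was at 5.72 and 5.28 in LSK and at 0.39 and -0.80 in MEP (-1.01). Of 20 measured genes 3 were higher and 2 lower, against 3.38% and 5.8% of all genes. Enzymes of sterol and fatty acid synthesis gave 2 higher genes of 34, against 3.38% of all genes. These were Scd1, the stearoyl desaturase (1.91), through a response of -1.94 in LSK, and Fdps, of the sterol pathway (1.13). Fdps had responses of -0.72 in LSK and 0.41 in MEP. Histone genes had a median of 0.28 over 28. Their many near-identical copies can share probe signal, and H4c3 was the one past 2-fold (1.04).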
